A study of Mus musculus with 24 samples.

Results

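The 10 genes followed here build or mark cell contacts in epithelia and were chosen by name from the deposited table: the cadherins Cdh1 and Cdh2, the adhesion molecule Epcam, the claudins Cldn3, Cldn4, Cldn6 and Cldn7, occludin (Ocln), and the keratins Krt8 and Krt18. They are 10 of the 49705 entries of the table, and all 10 were among the 21005 entries that passed the filter on low values, which asked for a normalized count of at least 10 in at least 3 libraries. The study followed mouse optic vesicle (OV) organoids, aggregates of embryonic stem cells that form eye tissue in culture, to describe how the eye field, the first group of cells set aside to become retina, arises. RNA was sequenced in 24 libraries, with 3 replicates in each of 8 groups.

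All groups came from the Rx-GFP K/I EB5 line, a mouse embryonic stem cell line with GFP knocked into the Rax locus, so that every comparison is within 1 line that carries the reporter. Day 0 cells had no treatment, and the cells of days 1 to 5 came from OV organoid differentiation. Each organoid was started from 4500 cells, Matrigel was present at 2% from day 1, and a sample pooled 24 organoids. Live single cells were sorted in all groups, and on days 4 and 5 they were further divided into GFP-positive and GFP-negative cells, so GFP was a gate on those days only and day 3 held all live cells. By the study's methods the GFP-negative gate took in cells with a low GFP signal, and the GFP-positive gate cells with moderate and high signals. Rax, the gene that drives the reporter, averaged 975 normalized counts in GFP-negative and 9559 in GFP-positive cells on day 4, and 447 and 8608 on day 5, so the GFP-negative gate was depleted of Rax RNA but not free of it. A sample is a mixture of cells, and fewer cells that express a gene cannot be told apart from less of its RNA per cell.

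Epithelial cells hold together through adherens junctions, in which cadherins of neighbouring cells bind each other and connect inside to catenins and actin, and through tight junctions, in which claudins and occludin seal the space between cells. Pluripotent cells and the epiblast make Cdh1 (E-cadherin), whereas the neural plate, which is also an epithelium, makes Cdh2 (N-cadherin) in its place, an exchange known as the cadherin switch. Neuroepithelium keeps apical adherens junctions and the scaffold proteins of tight junctions while it loses occludin and many claudins. Krt8 and Krt18 pair to form the first keratin filaments of the embryo, which are typical of simple epithelia.

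Between day 3 and day 4 GFP-positive cells, Cdh1, Epcam, Cldn3, Cldn4, Cldn6 and Cldn7 fell and Cdh2 rose. A gene was called where limma gave a Benjamini-Hochberg adjusted p below 0.001 over all entries tested and a log2-fold-change beyond 1.5 in either direction. By that rule 6 of 10 members fell, against 7.36% of all entries tested, and 1 rose, against 3.33%. The median log2-fold-change was -3.92 over the 10 members and -0.01 over all entries. In GFP-negative cells the same genes other than Cldn3 were called, in the same directions and with smaller changes (5 of 10 lower against 0.871% of all entries, 1 higher against 2%). Both comparisons use the same day 3 libraries. Ocln, Krt8 and Krt18 were called in neither.

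**Figure D1:**
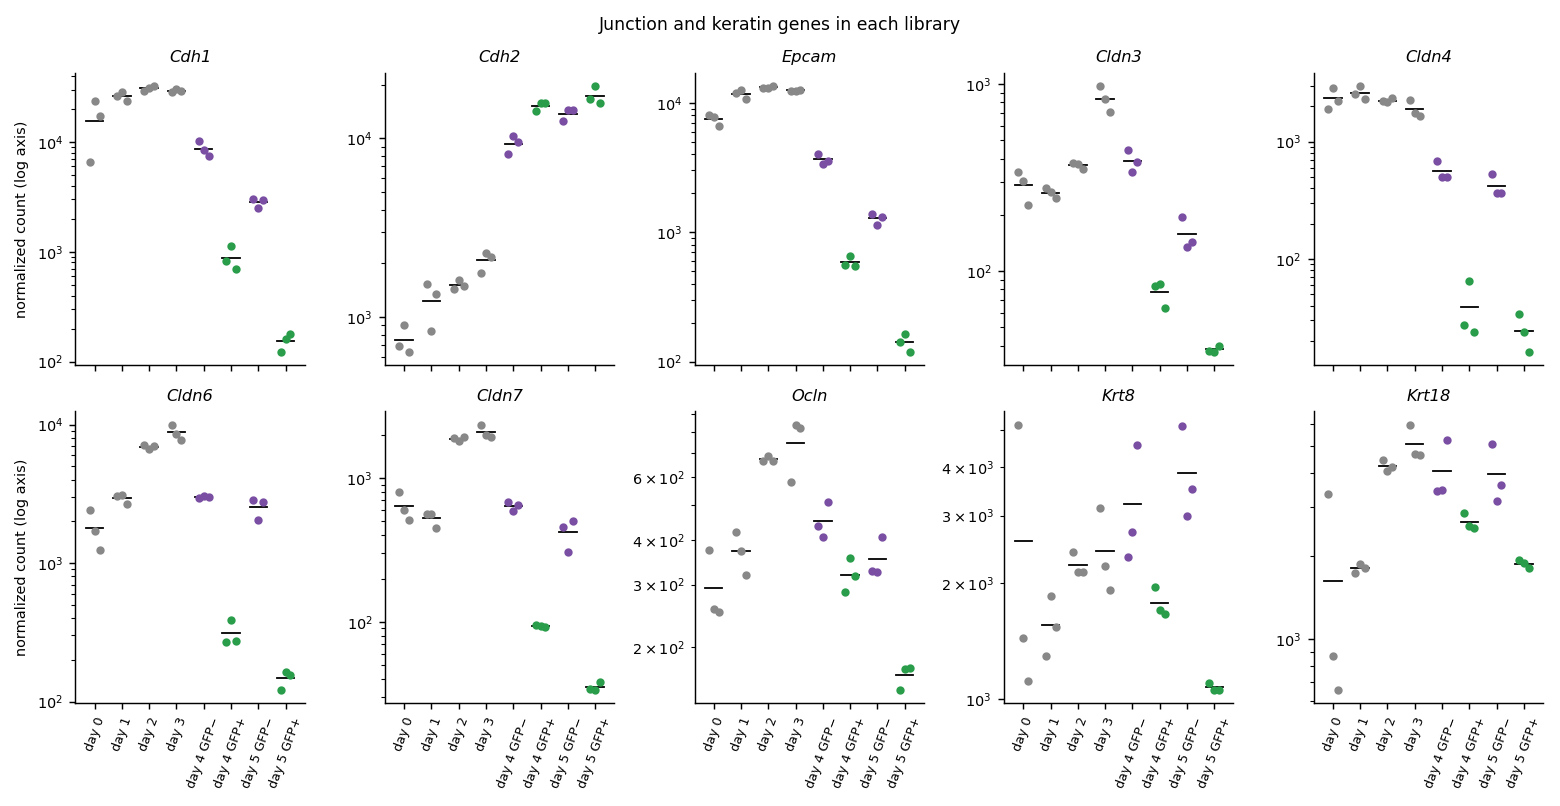
Normalized counts on a log axis (each panel has its own range) of the 10 genes in each of the 24 libraries, by group. Points are libraries (GFP− is GFP-negative, purple; GFP+ is GFP-positive, green), and horizontal lines are means of 3. Cdh1 stood between 28483 and 30552 on day 3 and between 123 and 178 in day 5 GFP-positive cells, while Cdh2 went from 1778 to 2291 to 15822 to 19511.

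The libraries held 39849111 to 51587535 normalized counts in total, and 1 read was worth 0.809 to 1.40 normalized counts. No replicates held identical values, and Spearman's rho over the entries tested was 0.979 to 0.993 in 22 pairs of replicates. The remaining 2 pairs, both with day 0 replicate 1, gave 0.953 and 0.954. In that library Cdh1 was at 6539.8, the lowest of the 3 day 0 values, and Krt8 and Krt18 were at 5166 and 3364, the highest, so the fold changes and ratios that use day 0 are also given without it. Its distance from the other replicates also entered the spread estimated for each gene. It therefore changed p-values of comparisons that do not use day 0, most of all for Cdh1, Krt8 and Krt18. The study describes biological triplicates of organoid cultures, while nothing in the labels ties the replicates to separate cultures beyond the pools of organoids. P-values therefore measure the spread between samples of a group, estimated for each gene over all 8 groups together.

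The positions of the genes are given on mm10. Cdh1 is at chr8:106603351-106670246 (plus strand), Epcam at chr17:87635979-87651129 (plus), Cldn6 at chr17:23679249-23682446 (plus), Cldn7 at chr11:69964779-69967885 (plus) and Ocln at chr13:100496507-100552718 (minus). Cldn4 (chr5:134945119-134946934, minus) and Cldn3 (chr5:134986214-134987472, plus) are close neighbours, as are Krt8 (chr15:101996698-102004482, minus) and Krt18 (chr15:102028180-102032027, plus). In the GENCODE M21 annotation, exons of Cldn3 and Krt8 overlap antisense or long noncoding transcripts on the opposite strand (Wbscr25 by 40 bases and Gm36026 by 101), and whether reads were assigned by strand is not given in the sources used here. The other 8 members overlap no other annotated exon.

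The 250 bases before the annotated start were read from a set of RefSeq start windows (GRCm38.p6), which held 10 windows for 8 members. That set held no window for Cdh1 and Cdh2, so these were not searched. Zeb and Snail proteins, repressors of epithelial genes, bind the E-box CAGGTG, and Grainyhead-like proteins, activators of epithelial genes, bind AACCGGTT. CAGGTG or its reverse complement CACCTG was present in 7 of the 10 windows, in 1 or more windows of 7 members (Epcam, Cldn4, Cldn6, Cldn7, Ocln, Krt8 and Krt18), and in 17.2% of 32851 RefSeq windows of the same length. AACCGGTT, searched on both strands, was in 0.116% of all windows and in none of the 10, and its core ACCGGT was in 1.86% of all windows and in that of Epcam, with 2 copies. Members with the E-box thus included Ocln, Krt8 and Krt18, which were called in neither gate of day 4, and Cldn3, which fell in GFP-positive cells, had none. Annotated exons touched the E-box windows of Cldn7, Ocln, Krt8, Krt18 and Cldn6 and no other window. By the gene positions above, the E-boxes of Cldn7, Ocln, Krt8 and Cldn6 lay within the span of the gene. Those of Epcam, Cldn4 and Krt18 lay before it. A match in these letters is a description and not a bound site. The windows of Epcam, the member with most of these motifs, and of the neighbours Cldn4 and Cldn3, of which 1 has an E-box and the other none, are shown 5′ to 3′ on the strand of the gene, with E-boxes in capitals and position -1 as the last base.
Epcam (chr17:87635729-87635978, E-boxes starting at -187 and -19): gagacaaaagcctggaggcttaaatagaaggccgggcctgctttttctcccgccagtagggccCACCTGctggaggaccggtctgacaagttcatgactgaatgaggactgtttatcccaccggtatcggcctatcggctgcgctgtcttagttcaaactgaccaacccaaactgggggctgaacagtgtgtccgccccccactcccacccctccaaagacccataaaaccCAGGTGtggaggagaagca
Cldn4 (chr5:134946935-134947184, E-box starting at -14): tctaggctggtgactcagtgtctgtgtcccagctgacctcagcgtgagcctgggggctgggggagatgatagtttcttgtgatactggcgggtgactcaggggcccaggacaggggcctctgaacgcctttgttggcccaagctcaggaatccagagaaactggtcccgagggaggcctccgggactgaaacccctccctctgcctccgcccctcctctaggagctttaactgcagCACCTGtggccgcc
Cldn3 (chr5:134985964-134986213, no E-box): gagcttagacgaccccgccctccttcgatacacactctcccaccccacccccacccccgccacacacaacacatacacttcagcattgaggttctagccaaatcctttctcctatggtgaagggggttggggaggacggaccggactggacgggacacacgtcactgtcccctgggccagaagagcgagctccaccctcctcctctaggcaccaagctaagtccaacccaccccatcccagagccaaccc

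Cdh1 encodes E-cadherin, the classical cadherin of the epiblast and of most epithelia. Its normalized counts in replicates 1, 2 and 3 were 6539.8, 23498 and 17109 at day 0, 26249.9, 28587 and 23887 at day 1, 29299, 31347 and 32092 at day 2 and 28483, 30552 and 29309.5 at day 3. In GFP-negative cells they were 10202, 8394 and 7499 on day 4 and 3047, 2485 and 2945 on day 5. In GFP-positive cells they were 822, 1121 and 704 on day 4 and 123, 159.7 and 178 on day 5. All 6 GFP-positive libraries were therefore below all 18 others, and within each day the gates did not overlap. From the highest, the order of the group means was day 2, day 3, day 1, day 0, day 4 GFP-negative, day 5 GFP-negative, day 4 GFP-positive and day 5 GFP-positive. Days 2 and 3 overlapped, as did days 3 and 1, and day 0 and day 4 GFP-negative cells, whereas the last 3 groups were separate from each neighbour in that order. Without day 0 replicate 1, day 0 and day 4 GFP-negative cells no longer overlapped.

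From day 3 to day 4 Cdh1 fell 34.0-fold in GFP-positive cells (limma log2-fold-change -5.09, SE 0.29, adjusted p = 1.13e-11) and 3.41-fold in GFP-negative cells (limma log2-fold-change -1.77, SE 0.29, adjusted p = 1.38e-04). The second call was lost without day 3 replicate 2 and without day 4 GFP-negative replicate 2 or 3 (limma adjusted p = 0.00102, 0.00107 and 0.00139), with log2-fold-changes that stayed between -1.89 and -1.67. From day 4 to day 5 it fell a further 5.66-fold in GFP-positive cells (limma log2-fold-change -2.50, SE 0.29, adjusted p = 4.43e-06). A fit of the day 4 and day 5 GFP-positive groups alone did not call this fall or that of Epcam (limma adjusted p = 0.00244 and 0.00151). In GFP-negative cells it fell 3.06-fold (limma log2-fold-change -1.62, SE 0.29, adjusted p = 6.92e-04), a call that was lost with no filter on low values, with equal library totals (limma adjusted p = 0.00106 and 0.00228) and when any 1 of the 6 libraries compared was left out (log2-fold-change -1.72 to -1.49). Without day 0 replicate 1, which is in neither comparison, both falls in GFP-negative cells were called. The limma adjusted p were then 5.22e-08 from day 3 to day 4 and 4.78e-07 from day 4 to day 5, at the same log2-fold-changes. Fold changes here and below are on the scale of log2(normalized count + 1).

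Cdh2 (chr18:16588877-16809246, minus strand) encodes N-cadherin, the classical cadherin of the neural plate. Its normalized counts were 694, 901 and 643 at day 0, 1532, 837 and 1355 at day 1, 1448, 1618 and 1504 at day 2 and 1778, 2291 and 2173 at day 3. They were 8153, 10339 and 9573 in GFP-negative and 14153, 15772 and 15679 in GFP-positive cells on day 4, and 12575, 14396 and 14347 and 16644, 19511 and 15822 on day 5. All 12 sorted libraries were above all 12 of days 0 to 3, in both gates. The order from the highest was day 5 GFP-positive, day 4 GFP-positive, day 5 GFP-negative, day 4 GFP-negative, and then days 3, 2, 1 and 0. Day 4 GFP-positive and day 5 GFP-negative cells overlapped, as did day 2 with day 1 and day 1 with day 0.

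Cdh2 rose 7.34-fold from day 3 to day 4 in GFP-positive cells (limma log2-fold-change 2.88, SE 0.17, adjusted p = 2.68e-11) and 4.5-fold in GFP-negative cells (limma log2-fold-change 2.17, SE 0.17, adjusted p = 1.53e-08). The gates themselves were close to each other. The log2 difference of GFP-positive over GFP-negative cells was 0.71 on day 4 (95% interval 0.35 to 1.06, limma adjusted p = 0.00608) and 0.33 on day 5 (95% interval -0.03 to 0.69, limma adjusted p = 0.242), neither of which was called. Over days 0 to 3 its log2-fold-change was 1.49 (limma adjusted p = 5.09e-07), just under the threshold of 1.5, and 1.44 without day 0 replicate 1. It passed the threshold with equal library totals (1.54) and without day 0 replicate 2 or day 3 replicate 1 (1.63 and 1.60).

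The exchange of the cadherins was read within each library as the log2 ratio of Cdh2 to Cdh1 (mean ± SD, n = 3), which needs no scaling between libraries. It was -4.22 ± 0.86 at day 0 (-4.72 without replicate 1), -4.44 ± 0.56 at day 1, -4.34 ± 0.07 at day 2 and -3.83 ± 0.15 at day 3. It was 0.11 ± 0.38 in GFP-negative and 4.13 ± 0.33 in GFP-positive cells on day 4, and 2.29 ± 0.24 and 6.82 ± 0.32 on day 5. Cdh1 thus exceeded Cdh2 in all 12 libraries of days 0 to 3, and Cdh2 exceeded Cdh1 in all 6 GFP-positive libraries and in the 3 day 5 GFP-negative ones. In day 4 GFP-negative cells the genes were near parity: the ratio was -0.32, 0.30 and 0.35 in the 3 libraries, so the sign differed between replicates. Per kilobase of the longest annotated coding transcript the group means were lower by about 0.13, and parity remained in that group (-0.02).

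**Figure D2:**
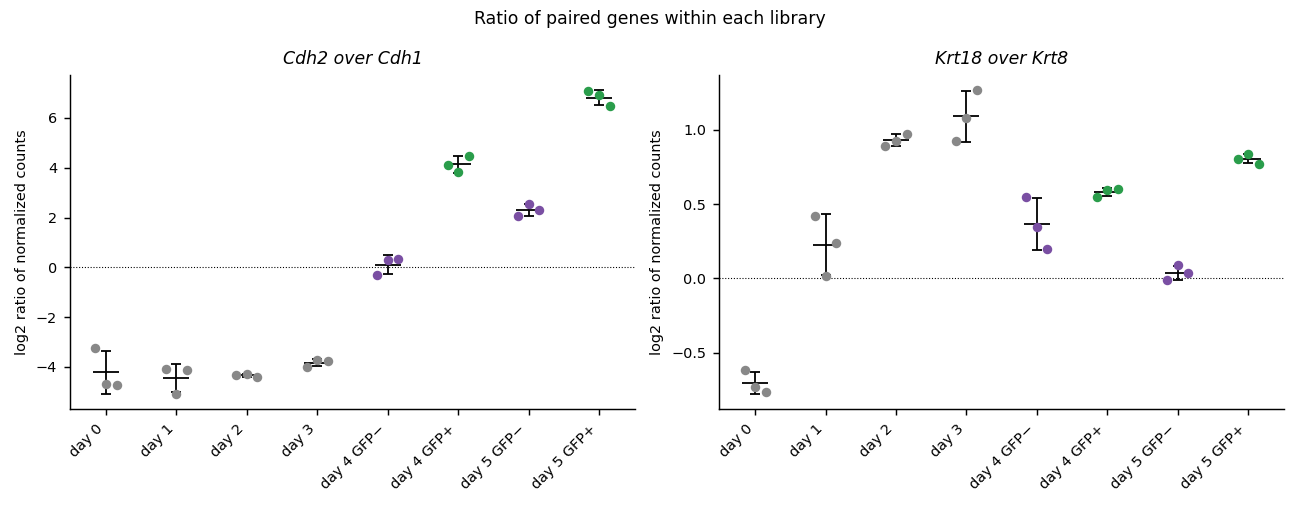
Log2 ratio of normalized counts of Cdh2 over Cdh1 (left) and of Krt18 over Krt8 (right) within each library, by group. Points are libraries, bars are the mean and SD of 3, and the dotted line marks equal counts. The cadherin ratio stood at -3.83 ± 0.15 on day 3, at 0.11 ± 0.38 and 4.13 ± 0.33 in the day 4 gates, and at 6.82 ± 0.32 in day 5 GFP-positive cells.

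Epcam encodes a surface adhesion molecule of epithelial and pluripotent cells. Its normalized counts were 8091, 7818 and 6596 at day 0, 11929, 12634 and 10784 at day 1, 13084, 13105 and 13379.8 at day 2 and 12441, 12448 and 12492 at day 3. On day 4 they were 4013, 3397 and 3561 in GFP-negative and 556, 652 and 544 in GFP-positive cells. On day 5 they were 1387, 1146 and 1304 and 141, 163 and 119. Replicates lay close together, and the order of the 8 groups was the same as for Cdh1, with only day 3 and day 1 overlapping among neighbours in it. Epcam fell 21.4-fold from day 3 to day 4 GFP-positive cells (limma log2-fold-change -4.42, SE 0.12, adjusted p = 1.70e-16) and 3.42-fold to day 4 GFP-negative cells (limma log2-fold-change -1.77, SE 0.12, adjusted p = 9.49e-10). From day 4 to day 5 it fell 4.13-fold in GFP-positive cells (limma log2-fold-change -2.05, SE 0.12, adjusted p = 4.99e-10). The change in GFP-negative cells was of a size at the threshold (limma log2-fold-change -1.52, SE 0.12, adjusted p = 4.38e-08), and it was no longer called with equal library totals (-1.41) and without day 4 GFP-negative replicate 1 or without day 5 GFP-negative replicate 2 (log2-fold-changes -1.45 and -1.44). With the fall of Cdh1, these were 2 of 10 members lower from day 4 to day 5 in each gate (GFP-positive, then GFP-negative), against 0.89% of all entries in the former gate and 0.509% in the latter. Without either of those GFP-negative libraries the count in that gate was 0.

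Cldn6 and Cldn7, claudins of the early embryo and of simple epithelia, were higher on days 2 and 3 than at the start. Cldn6 was at 2411, 1709.8 and 1249.8 at day 0, 3076, 3120.4 and 2686 at day 1, 7097, 6719 and 7015 at day 2 and 9994, 8618 and 7798 at day 3. Cldn7 was at 795, 602 and 508, 561, 564 and 449, 1902, 1809 and 1938 and 2349.6, 1979 and 1915 on the same days. Neither gene's day 3 values overlapped those of day 0, as was so for 42% of all entries. Cldn7 rose 3.6-fold in the single step from day 1 to day 2 (limma log2-fold-change 1.85, SE 0.17, adjusted p = 2.20e-07), and it was the 1 member of 10 called there, against 0.943% of all entries. In that step the log2-fold-change of Cldn6 was 1.23 (limma adjusted p = 1.06e-04), under the fold threshold. No member was called from day 0 to day 1 or from day 2 to day 3 (limma), against 0.738% and 1% of all entries. At an unadjusted p under 0.05 there were 4 and 2 members in those steps, against 22.5% and 28.2% of all entries.

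Cldn3 and Cldn4 are neighbouring genes whose proteins help to seal simple epithelia, and their values followed different courses over days 0 to 3. Cldn3 was at 339.8, 304 and 227 on day 0 and 279, 264 and 246 on day 1, then at 379.8, 376 and 353 on day 2 and 972, 829 and 711 on day 3. Cldn4 was at 1888, 2889 and 2236, 2522, 2948 and 2286, 2207, 2167 and 2335 and 2279, 1750.0 and 1647 on the same days. The highest Cldn3 values were those of day 3, which overlapped no other group, whereas each of the 4 days overlapped its neighbour for Cldn4. From day 0 to day 3, 4 of 10 members rose, against 5.91% of all entries, and none fell, against 6.12%. These were Cldn6 (5.07-fold, limma log2-fold-change 2.34, SE 0.19, adjusted p = 2.82e-09), Krt18, Cldn7 (3.32-fold, limma log2-fold-change 1.73, SE 0.17, adjusted p = 4.84e-08) and Cldn3 (2.9-fold, limma log2-fold-change 1.53, SE 0.18, adjusted p = 4.86e-07). The value of Cldn3 lay at the fold threshold, and its call was lost under quantile normalization (1.48) and without day 0 replicate 3 or day 3 replicate 1 (1.37 and 1.42). Cldn4 differed by -0.30 on the log2 scale over the same days (95% interval -0.90 to 0.31, limma adjusted p = 0.439), and by -0.44 without day 0 replicate 1 (limma adjusted p = 0.263).

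No member was called from day 0 to day 1 without day 0 replicate 1 either. Without it, 5 members rose from day 0 to day 3: the same 4 and Ocln (log2-fold-change 1.53, limma adjusted p = 1.24e-07). The log2-fold-changes of Cldn6, Cldn7 and Cldn3 were then 2.58, 1.90 and 1.66, and that of Cdh1 was 0.55 in place of 1.09. A fit of day 0 and day 3 alone, with 3 libraries in each, called none of them (limma adjusted p = 0.00115 for Cldn6 and 0.0396 for Krt18).

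All 4 claudins fell from day 3 to day 4 GFP-positive cells, in which they were at 83.3, 85.1 and 63.6 (Cldn3), 27.3, 65.0 and 24.1 (Cldn4), 270.1, 389 and 273 (Cldn6) and 95.6, 93.3 and 92.3 (Cldn7). No GFP-positive library of day 4 reached any library of day 3 in any of them, and 54.4% of all entries were likewise separate. The fall was 52.0-fold for Cldn4 (limma log2-fold-change -5.70, SE 0.29, adjusted p = 2.24e-12), 28.5-fold for Cldn6, 21.9-fold for Cldn7 and 10.7-fold for Cldn3 (limma log2-fold-change -3.42, SE 0.18, adjusted p = 3.03e-12). The adjusted p of Cldn6 and Cldn7 were 5.69e-14 and 3.65e-14 by limma, with log2-fold-changes of -4.83 and -4.45. Cldn4 had the largest fold change of the 10 members in this comparison, and in all 6 GFP-positive libraries it stood at 16.3 to 65.0 normalized counts.

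In day 4 GFP-negative cells the claudins were at 444, 338 and 383 (Cldn3), 688, 503 and 498 (Cldn4), 2968, 3061 and 2999 (Cldn6) and 678, 592 and 652 (Cldn7), below day 3 in each library and above every GFP-positive library. Against day 3, Cldn4, Cldn7 and Cldn6 fell by 1.75, 1.70 and 1.54 on the log2 scale, and Cldn3 differed by -1.10 (limma adjusted p = 1.23e-04), short of the fold threshold. The Cldn6 call was lost with equal library totals (log2-fold-change -1.46) and without day 3 replicate 1, and the Cldn4 call without day 3 replicate 1 or day 4 GFP-negative replicate 2 or 3, with log2-fold-changes no nearer 0 than -1.45 and -1.61. In day 5 GFP-negative cells they were at 196, 135 and 144 (Cldn3), 529.7, 367 and 366 (Cldn4), 2875, 2057 and 2745 (Cldn6) and 459, 305 and 503 (Cldn7), and no claudin member was called between days 4 and 5 in that gate. In day 5 GFP-positive cells the claudins were at 37.5, 37.1 and 39.8 (Cldn3), 33.7, 23.8 and 16.3 (Cldn4), 121, 163 and 156 (Cldn6) and 34.2, 33.7 and 38.1 (Cldn7), and they were not called against day 4 either.

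Ocln encodes occludin, a membrane protein of tight junctions, and its values spanned a narrower range than those of the claudins. It was at 375, 257 and 251 at day 0, 422, 373 and 319.5 at day 1, 666, 685 and 664 at day 2 and 579, 839 and 819 at day 3. It was at 438, 407 and 509.7 in GFP-negative and 286, 357 and 316 in GFP-positive cells on day 4, and at 328, 325 and 407 and 152, 175 and 176 on day 5. Below days 3 and 2, the middle 5 groups each overlapped their neighbour in the order of levels, and the day 5 GFP-positive libraries were the 3 lowest of all 24. In day 4 GFP-positive cells its log2-fold-change against day 3 was -1.21 (95% interval -1.56 to -0.85, limma adjusted p = 7.63e-06), past the p threshold and short of the fold threshold.

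Krt8 and Krt18 encode the type II and type I partners of one filament. Krt8 was at 5166, 1440.3 and 1115 on day 0, 3147, 2221 and 1927 on day 3, 2344, 2726 and 4580.0 in day 4 GFP-negative and 1956, 1701 and 1664 in day 4 GFP-positive cells. Krt18 was at 3364, 868 and 657, 5978, 4688 and 4650.2, 3435, 3469 and 5263 and 2861, 2573 and 2525 in the same groups. On day 5 they were at 5125, 2991 and 3525 (Krt8) and 5082, 3178 and 3610.3 (Krt18) in GFP-negative and 1105, 1058 and 1059 (Krt8) and 1935, 1892 and 1812 (Krt18) in GFP-positive cells. The 3 day 5 GFP-positive libraries were the lowest of all for Krt8, while for Krt18 they overlapped days 1 and 0. A high replicate stood out in several groups: replicate 1 on day 0, replicate 3 in day 4 GFP-negative and replicate 1 in day 5 GFP-negative cells, in each case for both genes. The summed normalized counts of 8 endoderm genes, whose cells also make both keratins, were highest in the same 3 libraries, at 3021, 2309 and 1583 in replicates 1, 2 and 3 of day 0, at 2175, 3375 and 3553 in day 4 GFP-negative and at 4961, 3745 and 4535 in day 5 GFP-negative cells. Single genes of the list did not all follow. Foxa2 was at 510, 509 and 463 in day 4 GFP-negative and Gata6 at 648, 764 and 755 in day 5 GFP-negative cells. The part of such cells in the keratin values was not tested. The entry for the pseudogene Krt8-ps was at 0 in 23 libraries and at 0.915 in the other.

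Neither keratin was called from day 3 to day 4. The log2-fold-change in GFP-positive cells was -0.43 for Krt8 (95% interval -1.20 to 0.34, limma adjusted p = 0.403) and -0.94 for Krt18 (95% interval -1.68 to -0.19, limma adjusted p = 0.0433). Without day 0 replicate 1 these log2-fold-changes were the same, with limma adjusted p of 0.12 and 6.08e-05, and neither was called. From day 0 to day 3 Krt18 rose 4.08-fold (limma log2-fold-change 2.03, SE 0.36, adjusted p = 8.94e-05, and log2-fold-change 2.74 without day 0 replicate 1). Over the same days the difference of Krt8 was 0.23 with (limma adjusted p = 0.651) and 0.91 without that library (limma adjusted p = 0.00401), not called in either. From day 0 to day 1 the difference of Krt8 turned from -0.39 to 0.29 when that library was left out. The log2 ratio of Krt18 to Krt8 within a library, which varied little between replicates, was -0.70 ± 0.08 at day 0 (-0.75 without replicate 1), 0.23 ± 0.20 at day 1, 0.93 ± 0.04 at day 2 and 1.09 ± 0.17 at day 3 (mean ± SD, n = 3). In sorted cells it was 0.37 ± 0.18 in GFP-negative and 0.58 ± 0.03 in GFP-positive cells on day 4, and 0.04 ± 0.05 and 0.81 ± 0.03 on day 5. Day 0 was the 1 group in which Krt8 exceeded Krt18 in all 3 libraries, and the gates did not overlap on day 5.

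The comparison of the gates sets cells with a moderate or high reporter signal against cells with a low signal or none, sorted on the same day. On day 4, 6 of 10 members were lower in GFP-positive cells, against 3.63% of all entries, and none was higher, against 0.328%. On day 5 the same 6 were lower, against 4.61% of all entries, and again none was higher, against 0.4%. In both cases these were Cdh1, Epcam and the 4 claudins, in the same direction in every library. All 10 members, those not called included, were separate between the gates on both days, against 38.3% of all entries on day 4 and 36.8% on day 5. The members' median log2 difference was -2.48 on day 4 and -2.59 on day 5, beside 0.01 and -0.002 over all entries.

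On day 4 Cdh1 was 9.96-fold lower in GFP-positive cells (limma log2-fold-change -3.32, SE 0.29, adjusted p = 3.68e-08) and Cldn4 15.5-fold lower (limma log2-fold-change -3.95, SE 0.29, adjusted p = 4.05e-09). Cldn6, Cldn7, Epcam and Cldn3 were 9.8-fold, 6.76-fold, 6.26-fold and 4.98-fold lower. On day 5 Cdh1 was 18.4-fold lower (limma log2-fold-change -4.20, SE 0.29, adjusted p = 1.09e-09) and Cldn6 17.3-fold lower (limma log2-fold-change -4.11, SE 0.19, adjusted p = 4.24e-12), with Cldn4, Cldn7, Epcam and Cldn3 16.9-fold, 11.4-fold, 9.04-fold and 4.02-fold lower. Ocln, Krt8 and Krt18 differed on day 5 by -1.07, -1.81 and -1.04 on the log2 scale (limma adjusted p = 8.75e-05, 0.00114 and 0.0505), and none was called. Krt8 just missed the p threshold, and it was called under quantile normalization, with equal library totals, in a fit of the day 5 groups alone, and without any 1 of the day 0 libraries or day 4 GFP-negative replicate 3. Without day 0 replicate 1 the limma adjusted p of Ocln, Krt8 and Krt18 were 1.01e-05, 2.00e-06 and 4.42e-05, at the same log2 differences. Of these only Krt8 was beyond the fold threshold.

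Whether the gate difference itself changed between days 4 and 5 was tested with an interaction term. No member was called (limma, Benjamini-Hochberg adjusted p of at least 0.155), against 0.109% of all entries. At an unadjusted p under 0.05 there were 5 members against 9.4% of all entries: Cdh1, Epcam, Cldn6, Cldn7 and Ocln, each with a more negative gate difference on day 5, by -0.89 for Cdh1 (SE 0.41, limma adjusted p = 0.493). Without day 0 replicate 1 the limma adjusted p of Cdh1 was 0.0323, the lowest of the members, and again none was called.

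**Figure D3:**
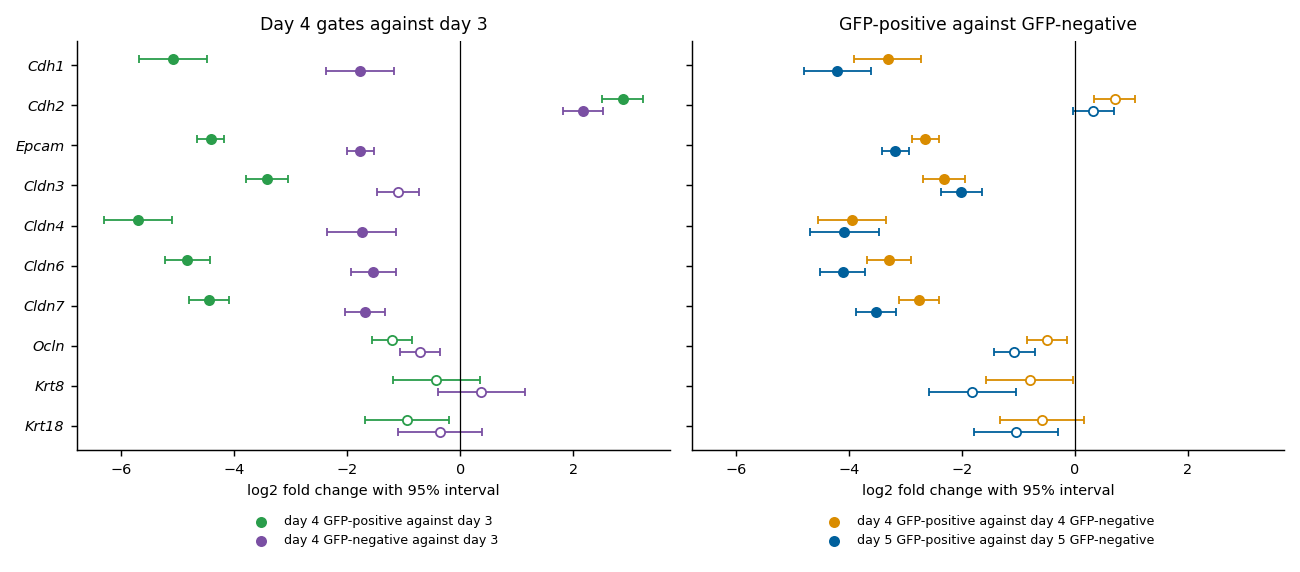
Log2-fold-changes of the 10 genes with 95% intervals from limma: day 4 GFP-positive (green) and GFP-negative (purple) cells against day 3 (left), and the GFP-positive gate against the GFP-negative gate of day 4 (orange) and day 5 (blue) (right). Filled points were called (adjusted p below 0.001, log2-fold-change beyond 1.5 in either direction). Cdh1, Epcam and the claudins lay between -5.70 and -3.42 in day 4 GFP-positive cells, while Ocln, Krt8 and Krt18 lay between -1.21 and -0.43.

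Over the whole course, from day 0 to day 5 GFP-positive cells, 6 of 10 members fell, against 14.9% of all entries, and Cdh2 rose, against 11.2%. Cldn4 fell 93.6-fold (limma log2-fold-change -6.55, SE 0.29, adjusted p = 4.44e-14) and Cdh1 90.2-fold (limma log2-fold-change -6.50, SE 0.29, adjusted p = 4.51e-14), and Cdh2 rose 23.4-fold (limma log2-fold-change 4.55, SE 0.17, adjusted p = 4.07e-15). Without day 0 replicate 1 the log2-fold-changes were -6.69, -7.03 and 4.50, and the same 7 members were called. Quantile normalization and equal library totals shifted the median of all entries in this comparison by 0.15 and 0.14 on the log2 scale, which is small beside these changes.

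Levels were compared between genes per kilobase of the longest coding transcript, in normalized counts per kilobase (mean ± SD, n = 3). On day 3 the highest were Cdh1 at 6647 ± 235, Epcam at 6108 ± 13.7 and Cldn6 at 5427 ± 684, and the lowest were Cdh2 at 429.6 ± 55.5 and Ocln at 184 ± 35.8. In day 5 GFP-positive cells the highest were Cdh2 at 3577 ± 399.8, Krt18 at 1308 ± 43.7 and Krt8 at 549 ± 13.7, with Cldn6 next at 90.5 ± 13.7 and Cldn4 lowest at 13.5 ± 4.82. The keratins were thus the abundant members of the epithelial set that remained in GFP-positive cells. In day 4 GFP-negative cells the level of Cdh1 (1963 ± 311), Cdh2 (1932 ± 229), Cldn6 (1856 ± 29.1) and Epcam (1793 ± 156) were so close that neighbours in level differed by less than the larger of their SDs.

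The genes whose 8 group means of log2(normalized count + 1) were most like those of Cdh1 were Tmem30b (Pearson's r = 0.996), Bspry (0.994), Clca4a (0.994), Gstm3 (0.993) and Gm12688 (0.993). Those most like Cdh2 were Stx17 (0.998), Rgs12 (0.996), Nucb2 (0.996), Evc2 (0.995) and Slco5a1 (0.994). These are the highest of 21005 entries over 8 points that share the libraries, given as a description. Among the members, Cdh1 and Epcam had an r of 0.997, whereas that of Cdh1 with Krt18 was 0.259.

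Of 12 catenins, nectins and related adherens junction genes tested, 1 fell and none rose from day 3 to day 4 GFP-positive cells (median log2-fold-change -0.15), beside the 7.36% and 3.33% of all entries given above. The gene that fell was Jup, plakoglobin, which serves both adherens junctions and desmosomes, from a mean of 4394 to 724 (limma log2-fold-change -2.59, SE 0.25, adjusted p = 3.59e-08). It was also the 1 gene of this list lower in the GFP-positive than in the GFP-negative gate on day 5 (limma log2-fold-change -1.81, SE 0.25, adjusted p = 1.44e-05), and none was called on day 4 between the gates (4.61% and 3.63% of all entries were lower).

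Other cadherins moved in both directions. Of 17 tested, 5 rose and 2 fell from day 3 to day 4 GFP-positive cells, against 3.33% and 7.36% of all entries. The largest rises were those of Cdh6 (mean 88.6 to 3289, limma log2-fold-change 5.23, SE 0.24, adjusted p = 7.04e-13), Cdh20 (69.9 to 2096, log2-fold-change 4.90) and Cdh11 (258 to 3229, 3.64), all of which are type II cadherins. Cdh3, P-cadherin, a close relative and neighbour of Cdh1, fell from 2219.9 to 73.3 (limma log2-fold-change -4.94, SE 0.30, adjusted p = 3.58e-11), and Cdh9 by 2.31 on the log2 scale. In GFP-negative cells 3 rose (Cdh6, Cdh20 and Cdh11) and 1 fell (Cdh3), against 2% and 0.871% of all entries. Between the gates on day 4, Cdh6 was higher in GFP-positive cells (log2 difference 1.84) and Cdh3 lower (-3.30), and on day 5 Cdh5 (-4.38) and Cdh3 (-2.57) were lower (of all entries, 0.328% were higher and 3.63% lower on day 4, and 4.61% lower on day 5).

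Of 24 other claudins listed, 12 passed the filter, and from day 3 to day 4 GFP-positive cells 2 fell and none rose: Cldn2 (mean 30.9 to 2.1) and Cldn5 (199 to 15.7). Of 19 other tight junction genes, 5 fell and 1 rose, beside the same 7.36% and 3.33% of all entries. The largest falls were those of Marveld3, a relative of occludin (log2-fold-change -4.55), Ildr1, a protein of tricellular contacts (-4.13), and Crb3, an apical polarity protein (-4.10). Ildr2, of the same family as Ildr1, rose from 292 to 2452 (limma log2-fold-change 3.07, SE 0.16, adjusted p = 5.12e-12). The same 3 falls and the rise were called in GFP-negative cells against day 3, where 0.871% of all entries fell and 2% rose. Crb3, Ildr1 and Marveld3 were the 3 of this list that were lower in the GFP-positive than in the GFP-negative gate on day 4, against 3.63% of all entries.

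Of 9 desmosome genes tested, Pkp3 and Dsg2 fell from day 3 to day 4 GFP-positive cells (log2-fold-changes -2.74 and -2.21), and on day 5 Dsp, Dsg2 and Pkp3 were lower in the GFP-positive than in the GFP-negative gate (log2 differences -2.58, -2.24 and -2.01). The shares of all entries lower in these comparisons were 7.36% and 4.61%. Of 8 other keratins tested, 3 fell and none rose from day 3 to day 4 GFP-positive cells: Krt80 (mean 183 to 2.67), Krt7 (229.7 to 18.6) and Krt17. Of 12 other genes of epithelial surfaces, 8 fell and none rose (7.36% and 3.33% of all entries), led by Ap1m2 (-5.21), which sorts proteins to the basolateral membrane, Mal2 (-4.97) and Rab25 (-4.21). Mal2, Rab25 and Ap1m2 had risen from day 0 to day 3, as had 2 others of the 12 (against 5.91% of all entries), with Ap1m2 at a mean of 700.0 on day 0 and 2678 on day 3. Of 6 genes of neural and mesenchymal filaments and fibronectin, none was called in either gate of day 4, while from day 0 to day 3 Nes rose (1139 to 3789) and Vim fell (10098 to 1669). Of all entries, 2% rose and 0.871% fell in GFP-negative cells of day 4, and 5.91% rose and 6.12% fell from day 0 to day 3. Without day 0 replicate 1 all 5 of these surface genes, Nes and Vim were still called, with log2-fold-changes of 1.87 for Ap1m2, 2.88 for Mal2, 2.15 for Rab25, 1.74 for Nes and -2.48 for Vim.

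**Figure D4:**
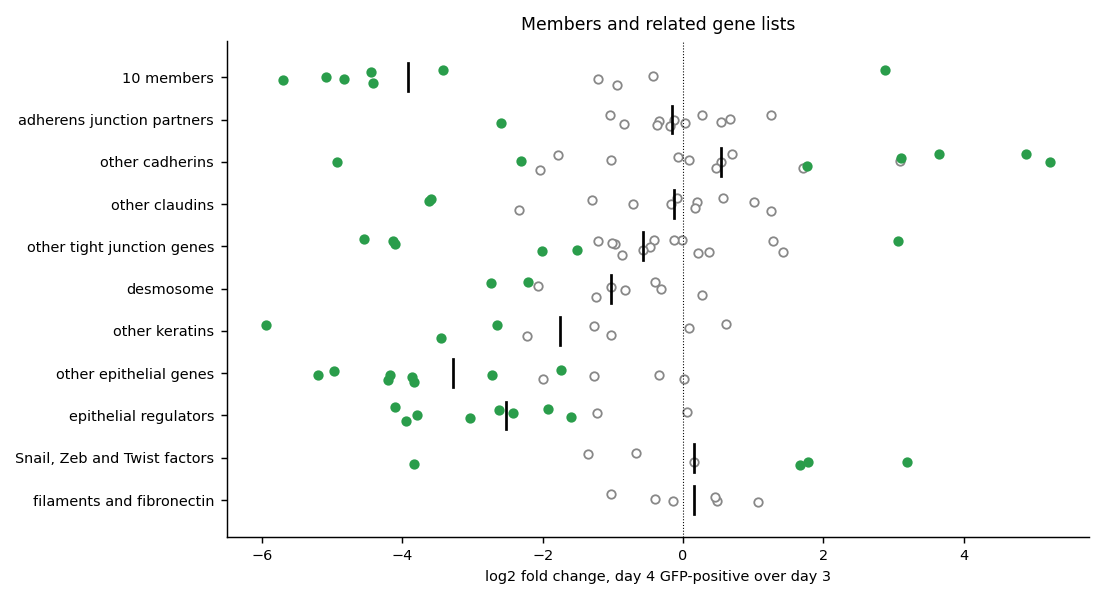
Log2-fold-change of day 4 GFP-positive cells over day 3 for each gene tested, for the 10 members and 10 lists of related genes. Filled points were called (adjusted p below 0.001, log2-fold-change beyond 1.5 in either direction), open points were not, and black lines are medians over the genes tested. Medians were -3.92 for the members, -3.28 for other epithelial genes and -2.52 for epithelial regulators, and -0.15 for adherens junction partners.

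Factors known to maintain epithelial genes were mostly lower in GFP-positive cells. Of 10 tested, 8 fell and none rose from day 3 to day 4 GFP-positive cells, none was called in GFP-negative cells of day 4, and 7 were lower in the GFP-positive than in the GFP-negative gate on day 5. The shares of all entries that were lower in these comparisons were 7.36%, 0.871% and 4.61%. The means of all but Esrp1 and Ovol2 were already lower on day 3 than on day 0. From day 0 to day 3 they went from 4144 to 385 for Klf4, 2743 to 566 for Klf5 and 1661 to 136 for Grhl3. Those of Elf3 and Grhl1 went from 1859 to 647 and from 401 to 138. Esrp1 went from 2724 to 5584 and Ovol2 from 147 to 162. Grhl2, an activator of Cdh1 and claudin genes, was at 2029, 2117 and 2142 on day 3, 716, 520.2 and 549 in day 4 GFP-negative and 102, 157 and 111 in day 4 GFP-positive cells (limma log2-fold-change -4.10, SE 0.40, adjusted p = 3.80e-08 for GFP-positive cells against day 3). Its highest values were earlier, at 5733, 6591 and 6265 on day 1, whereas those of Cdh1 were on day 2. Esrp2 and Ovol2 fell by 3.95 and 3.79 on the log2 scale, and Esrp1, which with Esrp2 sets epithelial splicing, differed between the day 5 gates by -2.89.

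Repressors of the epithelial state did not share a direction. Of 7 Snail, Zeb and Twist genes tested, 3 rose and 1 fell from day 3 to day 4 GFP-positive cells, against 3.33% and 7.36% of all entries. Zeb1, a repressor of Cdh1, was at 504, 792 and 850.0 on day 0, 151, 170.0 and 243 on day 3, 671, 755 and 979 in day 4 GFP-negative and 1764, 1785 and 1538 in day 4 GFP-positive cells. It was therefore higher on day 0 than on day 3 in each library, and above both days in day 4 GFP-positive cells. It rose 9.13-fold from day 3 to day 4 GFP-positive cells (limma log2-fold-change 3.19, SE 0.21, adjusted p = 1.01e-10), as did its relative Zeb2 (842, 843 and 882 to 2940.4, 2849 and 3053, limma log2-fold-change 1.78, SE 0.30, adjusted p = 5.61e-05) and, at low counts, Snai2 (12.2, 13.6 and 21.8 to 43.2, 49.4 and 62.7, limma log2-fold-change 1.67, SE 0.34, adjusted p = 5.11e-04). Snai3 fell by 3.84. Between the gates no gene of this list was called higher in GFP-positive cells: Snai1 was lower on day 4 (694, 1178 and 1085 in GFP-negative and 144, 134 and 173 in GFP-positive cells, limma log2-fold-change -2.68, SE 0.26, adjusted p = 1.49e-07) and on day 5 (-3.13), as was Snai3, and Twist1 and Twist2 were lower on day 5 (3.63% of all entries were lower on day 4 and 4.61% on day 5). Zeb1 and Zeb2 were called between the gates on neither day, with log2 differences of 1.09 and 0.57 for Zeb1 (limma adjusted p = 6.64e-04 and 0.0743), whose GFP-positive libraries all lay above the GFP-negative ones of the same day.

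**Figure D5:**
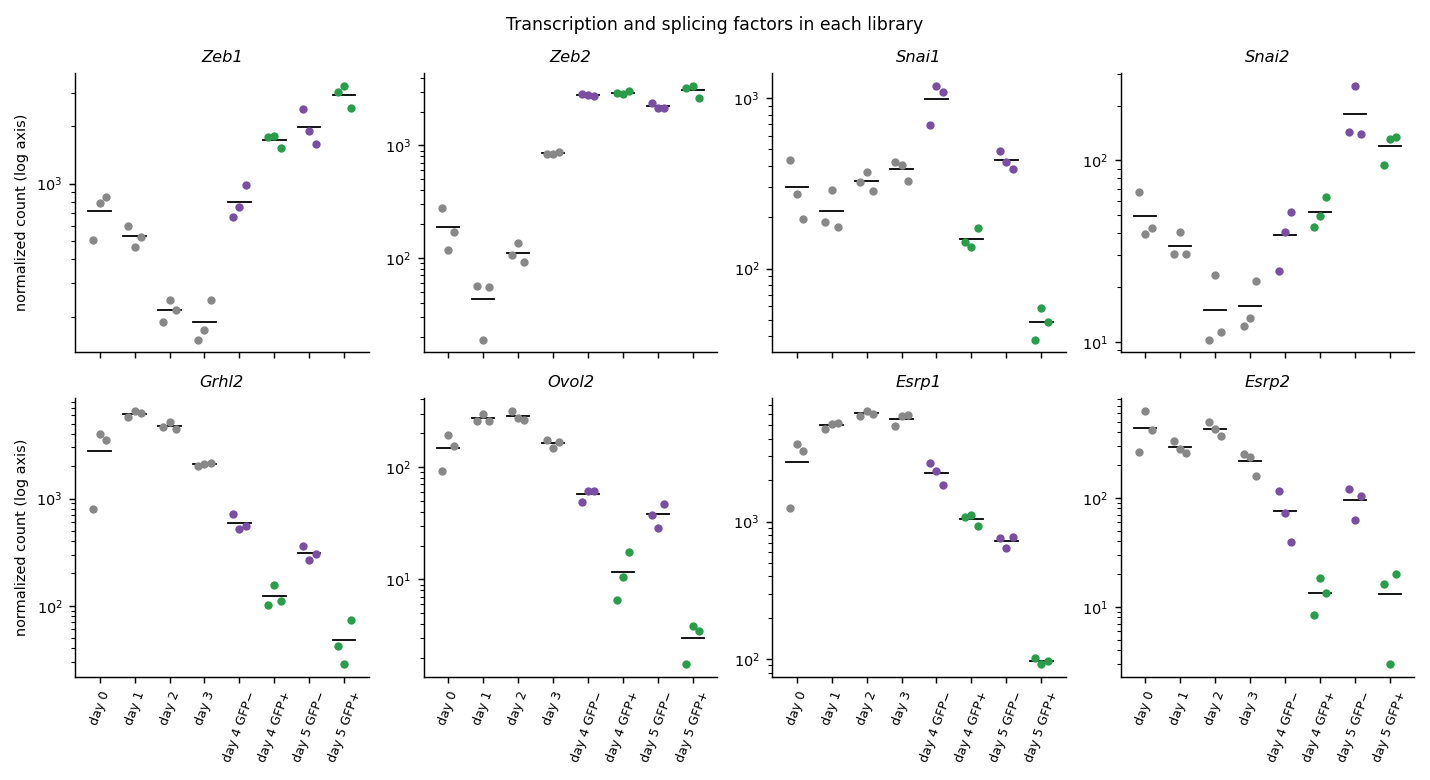
Normalized counts on a log axis (each panel has its own range) of 4 repressors of the epithelial state (top) and 4 factors that maintain it (bottom) in each library, by group. Points are libraries and horizontal lines are means of 3. Zeb1 averaged 188 at day 3 and 1695 in GFP-positive cells of day 4, and Grhl2 2096 and 123.

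Markers of other cells moved with the same comparisons. The summed normalized counts of 8 pluripotency genes, in cells of which Cdh1 and Epcam are also expressed, were 38393 to 49759 on day 3, 14591 to 17616 in GFP-negative and 1224 to 2635 in GFP-positive cells on day 4, and 6618 to 7790.5 and 421 to 564 on day 5. All 8 fell from day 3 to day 4 GFP-positive cells, all 8 were lower in GFP-positive cells in both gate comparisons, and 1 of 8 fell from day 3 to day 4 GFP-negative cells. Of all entries, 7.36% fell from day 3 to day 4 GFP-positive cells, 3.63% and 4.61% were lower in the gate comparisons of days 4 and 5, and 0.871% fell from day 3 to day 4 GFP-negative cells. Dppa3 was near 0 in GFP-positive cells of both days (means of 4.61 and 4.69). The 5 eye-field genes Rax, Pax6, Lhx2, Six3 and Six6 were all higher in GFP-positive cells, on day 4 against day 3 and in both gate comparisons (3.33%, 0.328% and 0.4% of all entries), with sums of 8869 to 10833 and 45893 to 47745 in the day 4 gates and 8351 to 9094 and 54804 to 57307 in those of day 5. Rax drives the reporter on which the cells were sorted, so its own gate differences follow from the sort. The part of these populations in the values of the 10 genes was not tested.

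Summed counts of markers of other lineages were also higher in the GFP-negative gate, in lists whose counts of calls stand beside 3.63% of all entries called lower in GFP-positive cells on day 4 and 4.61% on day 5. For 8 endoderm genes, whose cells keep Cdh1, Epcam and claudins, the sums on day 4 were 2175 to 3553 in GFP-negative and 154 to 346 in GFP-positive cells, with 4 of 8 called lower in GFP-positive cells, and on day 5 3745 to 4961 and 207 to 368, with 6 of 8. Gata4 was the most abundant of them in both gates of both days, followed by Gata6, Sox17 and Foxa2 in GFP-negative cells of day 4, and Afp and Apoa1 were low throughout. Gata4 and Gata6 averaged 1065 and 768 on day 0, close to their 1046 and 692 in day 4 GFP-negative cells. For 6 mesoderm genes the day 4 sums were 2291 to 3625 and 182 to 334 (5 of 6 lower), and for 5 neural crest genes 1928 to 2233 and 641 to 749 (2 of 5 lower, Ets1 and Foxd3, of which Foxd3 was at a mean of 2509.6 on day 3). Of the 7 surface ectoderm genes, the defining Krt5, Krt14, Krt15 and Trp63 were at or near 0 in sorted cells, and Tfap2a, Tfap2b and Dlx5 made up the sums of 401 to 668 and 88.1 to 151 on day 4 (Tfap2a and Dlx5 lower, 2 of 4 tested). Tfap2b stands in the surface ectoderm and the neural crest list, so that its counts enter both sums, and the 3 keratins and Trp63 also stand in the lists of keratins and regulators. For 7 endothelial genes, 2 of which (Cdh5 and Cldn5) also stand in the lists above, the sums were 1025 to 1858 and 149 to 276. Kdr and Pecam1 were lower (2 of 6 tested), of which Pecam1 was highest on day 0, at a mean of 3232, and Tek, Tie1, Cldn5 and Cdh5 were not called. Emcn was near 0 in all groups. On day 5 the sums in the GFP-negative and GFP-positive gates were 1196 to 1560.4 and 151 to 202 for mesoderm, where T and Mesp1 were lower (2 of 6), and 2112 to 2611 and 546 to 692 for neural crest, where Sox10, Ets1 and Foxd3 were lower (3 of 5). They were 538 to 893 and 117 to 226 for surface ectoderm, with 0 of 4 called, and 1552 to 2226 and 735 to 899 for endothelium, where Tek, Tie1, Cldn5 and Cdh5 were lower (4 of 6). Kdr, at a mean of 693, made up most of the day 5 GFP-positive sum. It rose from day 4 in that gate (limma log2-fold-change 2.93, adjusted p = 4.23e-05) and was not called between the day 5 gates (log2 difference -0.74, limma adjusted p = 0.27). The part of these cells in the gate differences was not tested.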

How the data were processed

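RNA of 24 samples was measured by polyA RNA-seq (TruSeq). The authors deposited a signal per gene: estimated counts from kallisto 0.43.1 (mm10, per the submitters' processing notes), divided by size factors from DESeq2 and not scaled to length. Strandedness is not given in the sources used here. 9 further columns of the table hold the authors' own calls and were not used, and 0 columns of per-sample values were left out. Groups and replicate numbers came from the sample labels.

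Entries that reached 10 in 3 or more libraries were kept, and log2(value + 1) was modelled for the 8 groups and 24 libraries together in limma 3.58.1 under R 4.3.3, with 1 moderated estimate of the spread that followed the mean (eBayes, trend on). P-values were adjusted after Benjamini and Hochberg over the 21005 entries of each comparison. Genes were called at the study's thresholds, an adjusted p below 0.001 and a log2-fold-change beyond 1.5 in size. Low values (at most 20 reads) fell within 0.1 of a whole read in 36.0% to 76.5% of cases, too few to recover reads, at an estimated 36900000 to 54600000 reads a library. 1 read weighs most in Cldn3, Cldn4 and Cldn7, whose lowest values were in GFP-positive cells. The procedure was tested on simulated data.

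The members and lists were chosen with earlier results of these data known. Named genes are the 10 members, at most 3 rising and 3 falling called genes of each list in a comparison described, the 5 genes most like Cdh1 and Cdh2, marker genes at or near 0 or most abundant in their list, and Krt8-ps, with Cldn5 and Cdh5 also named as members of 2 lists. Other marker genes were named after their values were seen. The lists were adherens junction partners, other cadherins, other claudins, other tight junction genes, desmosome, other keratins, other epithelial surface genes, epithelial regulators, Snail, Zeb and Twist factors, filaments and fibronectin, and markers of pluripotent cells, eye field, surface ectoderm, endoderm, mesoderm, endothelium and neural crest. Transcript lengths came from GENCODE M21 and start windows from RefSeq, and Python 3.11.15 with pandas 2.3.3 and matplotlib 3.10.9 drew the figures. The alternatives changed the pseudocount (0.5 or 5), the filter (none or 50), the scaling (quantiles or equal library totals), the trend (off), the libraries fitted (the compared groups alone, or each library left out) and the threshold (adjusted p below 0.05 at any fold), or took the replicate number as a block.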

Additional observations from a re-analysis of the deposited data

How the results depend on the processing

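Among 44 results compared across settings (counts of members called and log2-fold-changes of members), none that was called turned its direction, while differences that were not called could, as that of Krt8 from day 0 to day 1. Settings other than leaving out a library left 421 values on the same side of the threshold, took 12 below it and 7 above it, and leaving out each library in turn did so for 1021, 27 and 8. With an adjusted p under 0.05 and no fold threshold, limma called 4 members from day 0 to day 1 (10% of all entries), 4 from day 1 to day 2 (16.6%), 1 from day 2 to day 3 (14.4%) and 8 from day 0 to day 3 (43.6%). From day 4 to day 5 it called 6 in the GFP-positive gate (9.8%) and 5 in the other (10.2%). A fit of only the groups compared called 0 members from day 0 to day 3 and 0 from day 4 to day 5 in GFP-positive cells, and the cause was not tested. In GFP-negative cells from day 4 to day 5 there was 1 member with no filter, 0 with equal library totals and 1 without the trend, beside 2, likewise with no test of the cause. Leaving out 1 library gave 3 to 5 members from day 0 to day 3, 4 to 6 from day 3 to day 4 GFP-negative cells, 6 to 7 between the day 5 gates, 0 to 2 from day 4 to day 5 in GFP-negative cells, and no other count than that reported in the remaining comparisons. It moved the log2 ratio of Cdh2 to Cdh1 to between -0.01 and 0.33 in day 4 GFP-negative cells, and quantile normalization moved that of day 2 from -4.34 to -4.19.

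The replicate number as a block gave the same number of members called in each comparison (7 from day 3 to day 4 GFP-positive cells, 6 between the gates on either day) and changed no call of a member. Over all entries it called 0.91 to 0.99 times as many in each pair of groups, and 15 in place of 23 for the change of the gate difference. Same-numbered libraries of the gates did not deviate together (correlations -0.108, 0.0227 and -0.101 on day 4, and 0.00792, -0.0750 and 0.147 on day 5), so the numbers were not taken to pair samples. The planned count model was not run, since whole reads were not recovered. Depth limits precision most for Cldn3, Cldn4 and Cldn7 in day 5 GFP-positive cells, where values were 16.3 to 39.8.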
